A study of Homo sapiens with 6 samples.

Results

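The genes described here are the human protein-coding genes named as nucleoporins (NUP followed by a number), importins (KPNA, KPNB, IPO and TNPO genes) and exportins (XPO genes). This rule on symbols found 44 members among the 58735 genes of the count table: 20 nucleoporins, 18 importins of the alpha and beta types, and 6 exportins. They were measured by RNA-seq in Ishikawa cells, an established human endometrial cancer cell line. The cells were grown in DMEM with 10% fetal bovine serum and transfected with lipo2000. One group received a control siRNA (siNC, 3 libraries) and the other an siRNA against TCF19 (siTCF19, 3 libraries), and RNA was taken 48 hours later. The labels name no untransfected cells, no further siRNA and no second line, so a difference between the groups belongs to this siRNA pair in this line.

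Nuclear pores are large channels in the nuclear envelope that are built from nucleoporins. Scaffold rings anchor the pore in the membrane, and nucleoporins with phenylalanine-glycine repeats fill the channel and bind passing receptors. Importins carry proteins into the nucleus and exportins carry proteins and some RNAs out, and the small GTPase RAN, bound to GTP in the nucleus and to GDP in the cytoplasm, sets the direction. Cells that divide rebuild their pores after mitosis and add new ones in interphase.

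The 6 libraries held 14680022 to 16244705 counts, and the nucleoporins, importins and exportins made up 0.722% to 0.739% of each siNC library and 0.683% to 0.710% of each siTCF19 library. TCF19, a nuclear protein with a forkhead-associated domain, checks the labels: its level was 177, 185 and 177 CPM (counts scaled to a common library size with TMM factors) in siNC and 42.7, 35.3 and 39.1 CPM in siTCF19. Its log2 fold change was -2.20 ± 0.06 (SE), with an edgeR adjusted p of 6.15e-29. Of 10 epithelial and endometrial markers 8 could be tested. The summed level of all 10 ran from 3502 to 3665 CPM over the siNC libraries and from 3267 to 3460 CPM over the siTCF19 libraries. Of the 8, 3 rose (CDH1, SOX17 and KRT19) and 3 fell (KRT8, KRT18 and MSX1). The hormone receptor genes ESR1 and PGR stood at 0.275 CPM or less in every library. Of 12 stromal, endothelial and immune markers 3 could be tested. The sum over all 12 was 24.0 to 27.6 CPM (siNC) and 39.8 to 47.1 CPM (siTCF19). COL1A1 and VWF, most of that sum, rose and CDH5 fell, and the stromal marker DCN was at 0 in every library. Mitochondrial genes made up 3.49% to 3.65% of siNC counts and 3.92% to 4.08% of siTCF19 counts. The part of these marker and mitochondrial differences in the results was not tested. Whether replicates were grown as separate cultures is not said in the labels, and each p-value therefore reflects library-to-library spread alone, which may be technical.

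After TCF19 knockdown, transcripts of the transport machinery were mostly lower, by modest amounts. Of 43 members with enough counts to test, 23 fell and 4 rose, called at an edgeR adjusted p under 0.05 over all 17299 tested genes, and 16 were not called. The called falls ran from 9.61% to 27.3% and the called rises from 13.6% to 19.1%, and no called member reached a 1.5-fold change, whereas 11.8% of all tested genes were called with at least that size. The lower calls make 53.5% of the tested members, against 20.8% of all tested genes, 24.5% of tested protein-coding genes and 28.2% of tested genes at 10 CPM or more. The higher calls make 9.30% of the members, against 20.7%, 23.8% and 26.1% of the same gene sets. The median log2 fold change was -0.18 over the members and 0.00 over all tested genes. It was -0.12 over the members without siTCF19 replicate 3. In bulk RNA a lower level in every cell and a lower share of cells with a high level cannot be told apart.

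The libraries of a group lay close together for these genes, so that small differences could be seen: the median coefficient of variation was 3.06% in siNC and 2.95% in siTCF19. In 24 of the 43 tested members every siTCF19 library was below every siNC library, against 24.9% of all tested genes. In 5 of the 43 every siTCF19 library was above, against 24.4% of all tested genes. The other 14 tested members overlapped. Of the 27 called members 26 were free of overlap, the exception being IPO11. With scaling by library size alone, 20 members were called lower and 6 higher, and the higher share of all calls went from 49.9% to 61.4%. The 44th member, KPNA7, an importin alpha best known from oocytes and early embryos, had 0 counts in every library, and 3 counts would be 0.190 to 0.206 CPM.

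**Figure D1:**
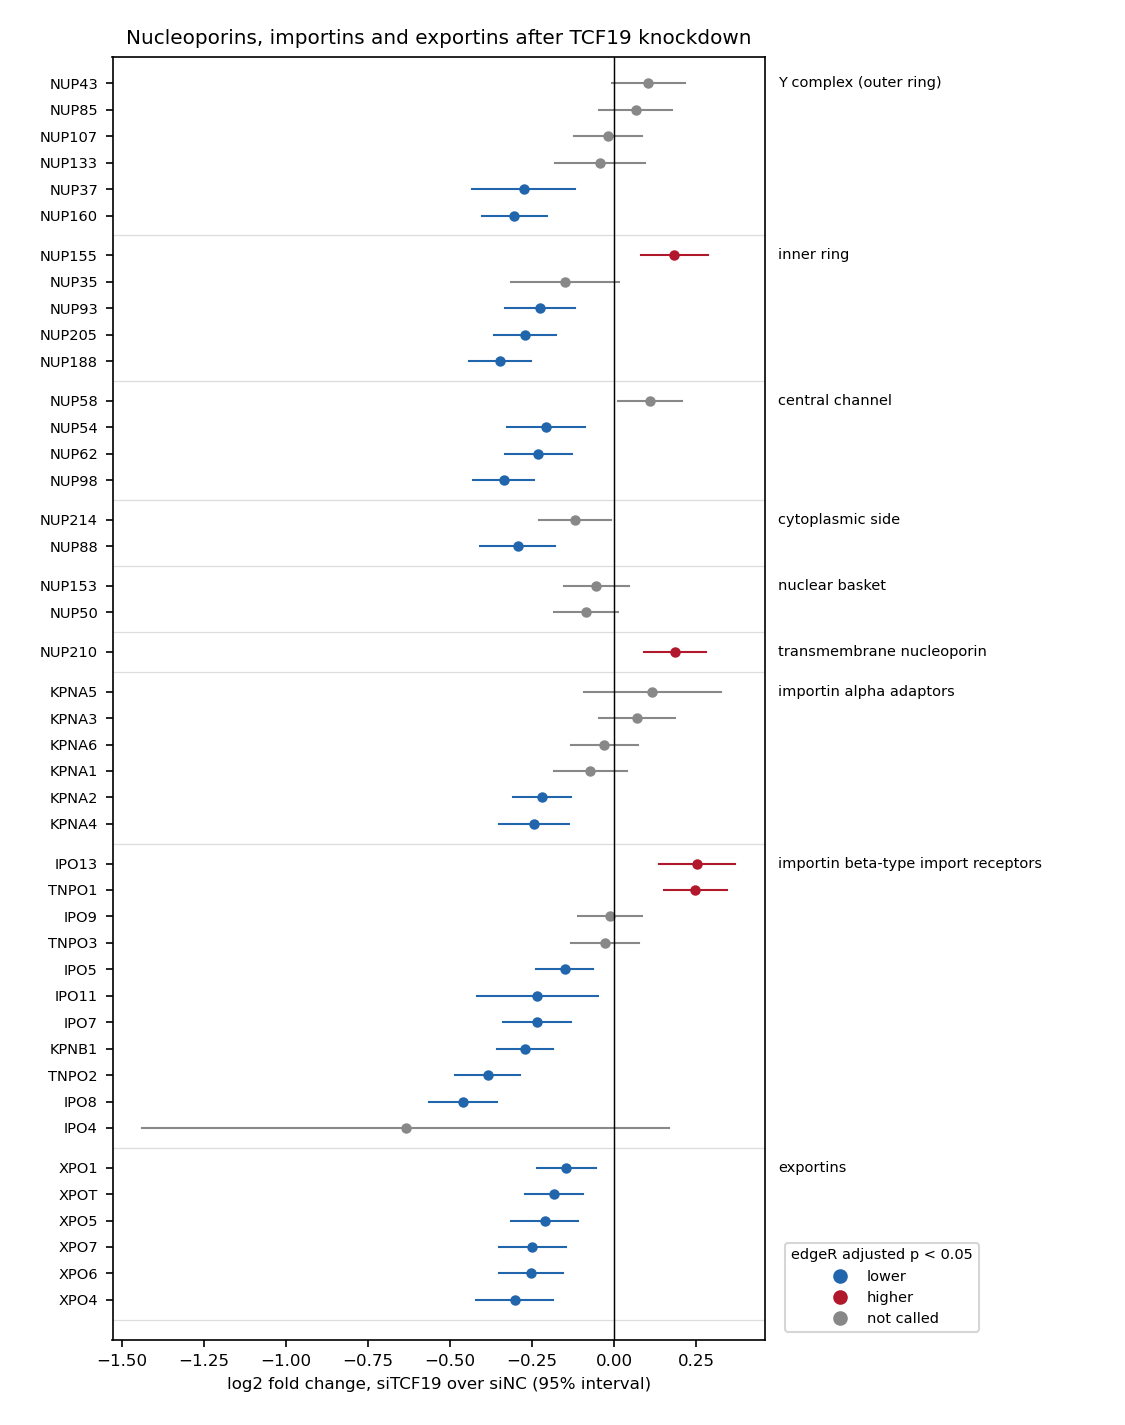
Log2 fold change (siTCF19 over siNC) of the 43 tested members by role, with 95% intervals, blue for called lower, red for called higher and grey for not called at an edgeR adjusted p under 0.05. All 6 exportins lie left of 0, the 4 called rises are NUP155, NUP210, IPO13 and TNPO1, and the wide interval is that of IPO4, which had very few counts.

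The DNA just before the start of 3 called members is shown because these windows overlap no GENCODE exon, so that they show proximal promoter sequence alone. Each is the 250 bases before the RefSeq start (GRCh38.p14), written 5′ to 3′ along the gene's strand, with motif matches in capitals. NUP205 (chr7:135557667-135557916, plus strand) has a GC content of 54.0% and holds 1 CCAAT box. NUP210 (chr3:13420323-13420572, minus strand) has a GC content of 80.8% and holds 1 GC box. XPO6 (chr16:28211966-28212215, minus strand) has a GC content of 75.2% and holds 6 GC boxes and 1 CCAAT box.
NUP205: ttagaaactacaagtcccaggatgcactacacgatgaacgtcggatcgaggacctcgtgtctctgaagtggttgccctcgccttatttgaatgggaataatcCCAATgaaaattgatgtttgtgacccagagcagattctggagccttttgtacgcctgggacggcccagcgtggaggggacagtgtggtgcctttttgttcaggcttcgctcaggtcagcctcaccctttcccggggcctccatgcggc
NUP210: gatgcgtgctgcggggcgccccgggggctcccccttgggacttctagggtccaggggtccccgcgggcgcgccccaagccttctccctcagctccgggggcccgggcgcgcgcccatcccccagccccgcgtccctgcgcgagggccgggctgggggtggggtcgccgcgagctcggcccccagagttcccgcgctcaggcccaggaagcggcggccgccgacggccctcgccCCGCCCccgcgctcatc
XPO6: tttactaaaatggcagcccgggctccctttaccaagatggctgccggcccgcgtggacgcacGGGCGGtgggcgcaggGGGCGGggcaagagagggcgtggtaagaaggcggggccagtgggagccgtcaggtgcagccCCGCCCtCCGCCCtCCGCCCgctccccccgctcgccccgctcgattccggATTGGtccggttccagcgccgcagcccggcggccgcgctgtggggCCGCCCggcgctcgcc
NUP205 and XPO6 were called lower and NUP210 higher.

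A RefSeq promoter was found for 38 of the 44 members, and 7 short motifs were searched on both strands, with overlapping matches between motifs allowed. The CCAAT box (CCAAT) was in 44.7% of the members' promoters, in 35.0% of those of 10602 tested protein-coding genes and in 33.0% of all 27305 promoters of the table. The core of ETS sites (CCGGAAG) was in 31.6% of the members' promoters, 15.6% of those of tested genes and 8.82% of all. The NRF1 motif (GCATGCG) was in 13.2%, 5.64% and 3.57%, and the E-box (CACGTG) in 15.8%, 8.81% and 6.49%, of the same sets. The GC box (GGGCGG) was in 52.6% of the members' promoters, 67.1% of those of tested genes and 42.3% of all. The E2F core (TTCGCGC) was in 5.26%, 3.24% and 1.93%, and the TATA box (TATAAA) in 5.26%, 5.17% and 11.1%. Among the 20 promoters of members called lower, 11 held a CCAAT box, 11 a GC box, 5 an ETS core, 3 an NRF1 motif, 3 an E-box, 1 an E2F core and 1 a TATA box. Among the 4 of members called higher, 4 held a GC box and 1 a CCAAT box, and none held another of the motifs. These shares describe letters in a window and say nothing of binding.

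The Y complex forms the outer rings of the pore scaffold. Of its 6 members here 2 fell and 4 were not called, with a median log2 fold change of -0.03. The share that fell, 33.3%, is near the 28.2% of all tested genes at 10 CPM or more. None was called higher, against 26.1% of those genes. NUP160, a long structural arm of the complex (chr11:47778087-47848555 on hg38), read 161, 156 and 156 CPM in siNC and 127, 129 and 128 CPM in siTCF19, a gap many times the spread within either group. Its log2 fold change was -0.30 ± 0.05 (edgeR adjusted p = 2.11e-06). NUP37, a small peripheral subunit, read 41.0, 35.9 and 40.9 CPM in siNC and 31.6, 34.9 and 30.7 CPM in siTCF19, and fell by 17.4% (edgeR adjusted p = 0.00344). The highest of the lowered libraries and the lowest control library were close in that gene, without overlap.

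The other 4 Y complex members were not called. NUP85 and NUP43 had the highest levels of the complex in FPKM (reads scaled by gene length and library size, the unit used here to compare genes), 22.1 and 21.6 in siNC and 23.1 and 23.2 in siTCF19, too close to be ordered. NUP85 read 115, 120 and 112 CPM in siNC and 113, 119 and 131 CPM in siTCF19, so the groups overlapped. Its fold was 1.05, with a 95% interval of 0.969 to 1.13 (edgeR adjusted p = 0.358). For NUP107 the interval was 0.920 to 1.06 and for NUP133 it was 0.883 to 1.07. NUP43 read 99.9, 92.2 and 97.3 CPM in siNC and 107, 107 and 97.5 CPM in siTCF19 (edgeR adjusted p = 0.134), and it was called higher without siTCF19 replicate 3 (0.0300) and with scaling by library size alone (0.0150). The summed FPKM of the complex ran from 97.0 to 102 over the siNC libraries and from 94.7 to 96.4 over the siTCF19 libraries.

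The inner ring holds the scaffold that lines the membrane and anchors the channel. Of its 5 members 3 fell (60%), 1 rose (20%) and 1 was not called. Of all tested genes at 10 CPM or more, 28.2% were called lower and 26.1% higher. NUP188 (chr9:128947699-129007096) read 241, 258 and 239 CPM in siNC and 194, 191 and 195 CPM in siTCF19, with a log2 fold change of -0.35 ± 0.05 (edgeR adjusted p = 6.38e-08). NUP205, a related large scaffold protein with the promoter shown above, level with NUP188 at 30.3 FPKM in siNC and above it in siTCF19 (25.1 and 23.8 FPKM), read 234, 228 and 237 CPM in siNC and 190, 199 and 189 CPM in siTCF19 (log2 fold change -0.27 ± 0.05, edgeR adjusted p = 5.91e-06). In both genes every siTCF19 library lay below every siNC library. NUP93, which links the ring to the channel nucleoporins, fell by 14.5% (edgeR adjusted p = 0.000588).

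NUP155, which connects the ring to the membrane side, went the other way. It read 156, 161 and 161 CPM in siNC and 176, 196 and 172 CPM in siTCF19, with a log2 fold change of 0.18 ± 0.05 (edgeR adjusted p = 0.00329). Its share of the ring's summed FPKM was 17.8%, 18.0% and 18.1% in siNC and 22.7%, 24.4% and 22.4% in siTCF19. The transcripts of the ring were in other proportions after knockdown, while their sum ran from 94.6 to 96.4 FPKM over the siNC libraries and from 82.2 to 85.9 FPKM over the siTCF19 libraries. NUP35 read 32.5, 30.4 and 34.1 CPM in siNC and 30.7, 30.5 and 26.2 CPM in siTCF19 and was not called (edgeR adjusted p = 0.146).

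Among the 4 nucleoporins of the central channel, which carry phenylalanine-glycine repeats, 3 fell and 1 was not called. The share that fell was 75.0%, against 28.2% of all tested genes at 10 CPM or more. No channel member was called higher, against 26.1% of those genes. NUP98 (chr11:3671083-3797792), whose precursor also yields a Y complex subunit, read 262, 255 and 252 CPM in siNC and 198, 208 and 202 CPM in siTCF19. This was a log2 fold change of -0.34 ± 0.05 (edgeR adjusted p = 8.28e-08), and the groups stood well apart. NUP62 read 141, 136 and 134 CPM in siNC and 117, 117 and 116 CPM in siTCF19 (edgeR adjusted p = 0.00022), and other genes overlap 21.1% of its exon bases. NUP54 fell by 13.4% (edgeR adjusted p = 0.00381).

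NUP62, NUP54 and NUP58 form a trimer in the channel, and NUP58 did not fall with its partners. It read 186, 175 and 180 CPM in siNC and 196, 200 and 189 CPM in siTCF19, every siTCF19 library above every siNC library, with an edgeR adjusted p of 0.0641. It was called higher in 4 of 16 alternative runs: without siTCF19 replicate 3 (0.0262), with upper-quartile scaling (0.0474), with library-size-only scaling (0.00338) and over protein-coding genes alone (0.0389). The FPKM ratio of NUP58 to NUP62 was 0.760, 0.743 and 0.780 in siNC and 0.965, 0.987 and 0.938 in siTCF19. The share of NUP58 in the channel's summed FPKM ran from 20.1% to 21.0% over the siNC libraries and from 24.8% to 25.5% over the siTCF19 libraries.

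**Figure D2:**
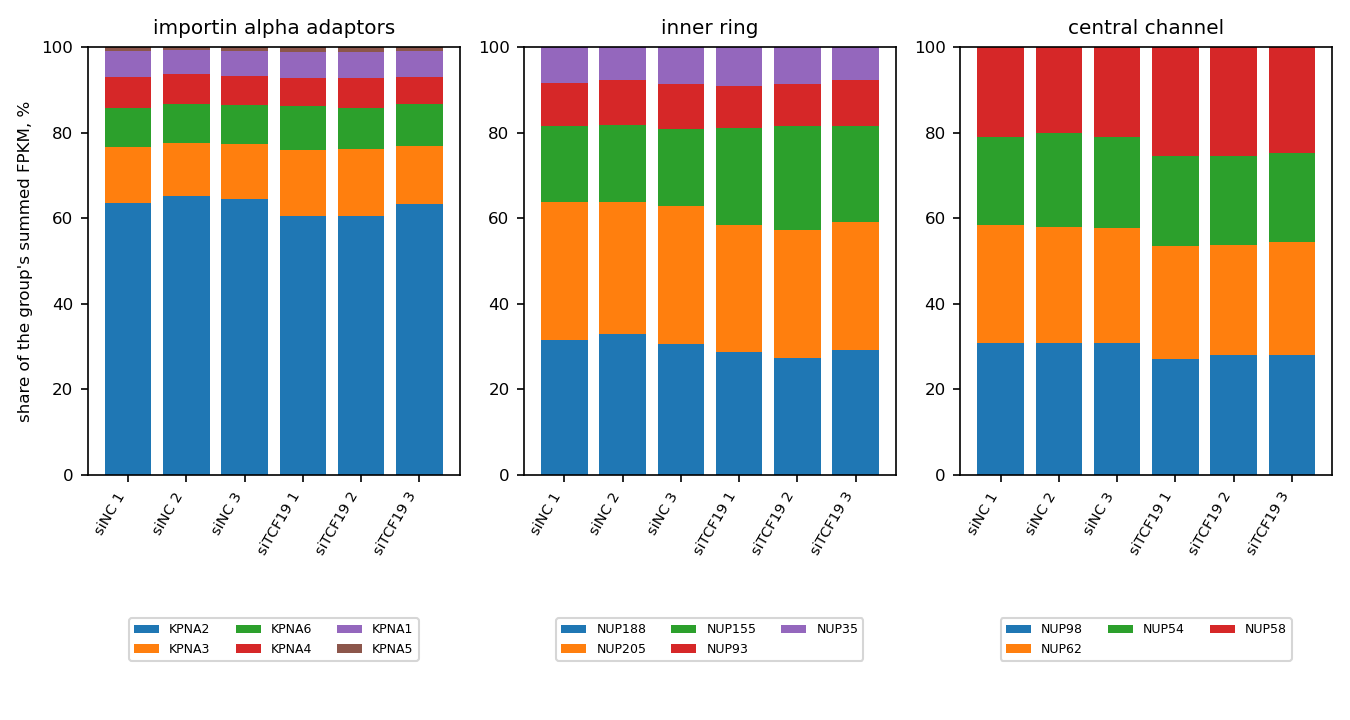
Share of each gene in the summed FPKM of its group (y axis, %), in each of the 6 libraries (x axis), for the importin alpha adaptors, the inner ring and the central channel. NUP155 takes 22.4% to 24.4% of the inner ring in siTCF19 against 17.8% to 18.1% in siNC, and NUP58 24.8% to 25.5% of the channel against 20.1% to 21.0%.

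On the cytoplasmic face, NUP88 and NUP214 form a complex that takes part in export. NUP88 (chr17:5360963-5420160) read 85.6, 82.9 and 83.7 CPM in siNC and 68.6, 69.0 and 68.2 CPM in siTCF19, with a log2 fold change of -0.29 ± 0.06 (edgeR adjusted p = 4.11e-05). Genes on the same stretch, RABEP1 and RPAIN, cover 18.7% of its exon bases. NUP214 read 102, 112 and 110 CPM in siNC and 101, 101 and 96.3 CPM in siTCF19 and was not called (edgeR adjusted p = 0.0764), although the groups did not overlap. Without siNC replicate 1 it was called lower (0.0429).

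The nuclear basket members were not called. NUP153, a basket nucleoporin that binds importins, read 147, 150 and 153 CPM in siNC and 143, 146 and 145 CPM in siTCF19, a fold of 0.963 with a 95% interval of 0.899 to 1.03. NUP50, which helps importin alpha release its cargo, had a fold of 0.943 with an interval of 0.880 to 1.01. NUP210, a membrane-spanning nucleoporin (chr3:13316235-13420309) whose promoter is shown above, rose: it read 274, 294 and 261 CPM in siNC and 316, 305 and 321 CPM in siTCF19. Its log2 fold change was 0.18 ± 0.05 (edgeR adjusted p = 0.00142), and at 33.5 FPKM in siNC and 38.0 in siTCF19 it had the highest mean FPKM among the 20 nucleoporins. Over all 20, 9 fell (45%), 2 rose (10%) and 9 were not called, with a median log2 fold change of -0.13. Lower calls made 28.2% and higher calls 26.1% of all tested genes at 10 CPM or more.

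Importin alpha adaptors bind the classical nuclear localisation signal of a cargo and hand it to importin beta. KPNA2 (chr17:68035519-68046842), the adaptor most tied to dividing cells, was the member with the highest level of all, at 123 ± 1.73 FPKM in siNC and 106 ± 2.26 FPKM in siTCF19 (SD, n = 3). It read 386, 396 and 390 CPM in siNC and 329, 335 and 344 CPM in siTCF19, with a log2 fold change of -0.22 ± 0.04 (edgeR adjusted p = 6.71e-05). KPNA4 read 130, 126 and 124 CPM in siNC and 107, 113 and 101 CPM in siTCF19 and fell too (log2 fold change -0.24 ± 0.05, edgeR adjusted p = 0.000219). These 2 of 6 tested adaptors make 33.3%, near the 28.2% of all tested genes at 10 CPM or more. No adaptor was called higher, against 26.1% of those genes. The remaining 4, KPNA3 included, were not called: the fold was 0.951 for KPNA1 (95% interval 0.880 to 1.03) and 0.979 for KPNA6 (0.912 to 1.05), and KPNA5, at 16.3 to 21.4 CPM, had a log2 fold change of 0.12 (edgeR adjusted p = 0.391).

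Among the uncalled adaptors, KPNA3, the closest relative of KPNA4, read 114, 106 and 111 CPM in siNC and 118, 124 and 104 CPM in siTCF19, with siTCF19 replicate 3 below every control library. Without that library KPNA3 was called higher, with a log2 fold change of 0.14 (edgeR adjusted p = 0.0376). The FPKM ratio of KPNA3 to KPNA4 was 1.84, 1.77 and 1.88 in siNC and 2.33, 2.31 and 2.17 in siTCF19. KPNA2 held 63.5% to 65.3% of the adaptors' summed FPKM in siNC and 60.5% to 63.4% in siTCF19, so it stayed the main adaptor transcript in every library.

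The 11 import receptors of the importin beta type moved both ways, with 6 falls, 2 rises and 3 members not called. The falls made 54.5% and the rises 18.2%, against 28.2% and 26.1% of all tested genes at 10 CPM or more. IPO4, at 0.443 to 1.72 CPM, is counted among the 11 though below that level. KPNB1, importin beta itself and the partner of the alpha adaptors (chr17:47649476-47685505), read 630, 616 and 629 CPM in siNC and 509, 528 and 515 CPM in siTCF19. Its log2 fold change was -0.27 ± 0.04 (edgeR adjusted p = 8.22e-07). KPNB1 had the second highest FPKM of all members, 80.7 in siNC and 66.8 in siTCF19, and it fell as did KPNA2 and KPNA4. The FPKM ratio of KPNA2 to KPNB1 was 1.53 ± 0.04 in siNC and 1.59 ± 0.04 in siTCF19 (SD, n = 3).

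IPO8 (chr12:30628988-30695986), a receptor related to IPO7, had the lowest p of all members. It read 147, 157 and 150 CPM in siNC and 113, 113 and 105 CPM in siTCF19, with a log2 fold change of -0.46 ± 0.05 (edgeR adjusted p = 8.53e-10) and a fold of 0.727, 95% interval 0.676 to 0.781. IPO7 read 200, 176 and 196 CPM in siNC and 165, 166 and 156 CPM in siTCF19, a fold of 0.850 (edgeR adjusted p = 0.000228). IPO5, which imports ribosomal proteins and histones, fell by 9.91% (edgeR adjusted p = 0.00429), a call that was lost with scaling by library size alone (0.0802).

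The transportins import RNA-binding proteins, and the 3 members differed. TNPO1 (chr5:72816312-72916733) read 309, 299 and 297 CPM in siNC and 358, 381 and 334 CPM in siTCF19, with a log2 fold change of 0.25 ± 0.05 (edgeR adjusted p = 3.57e-05). Its close paralog TNPO2 (chr19:12699194-12724011) read 185, 202 and 190 CPM in siNC and 148, 148 and 146 CPM in siTCF19, with a log2 fold change of -0.38 ± 0.05 (edgeR adjusted p = 1.8e-08). The paralogs thus moved in opposite directions, and the groups did not overlap in the FPKM ratio of TNPO1 to TNPO2, which was 0.982, 0.868 and 0.915 in siNC and 1.42, 1.51 and 1.34 in siTCF19. TNPO3, which imports splicing factors rich in serine and arginine, read 117, 119 and 118 CPM in siNC and 114, 118 and 116 CPM in siTCF19, a fold of 0.981 with a 95% interval of 0.914 to 1.05.

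IPO13, a receptor that works in both directions (chr1:43946939-43968022), read 65.9, 70.1 and 68.9 CPM in siNC and 82.5, 79.1 and 82.6 CPM in siTCF19, the rise with the largest percentage among members, 19.1% (edgeR adjusted p = 0.000402). IPO9, a histone import receptor, had a fold of 0.991 with an interval of 0.926 to 1.06. IPO11 read 29.6, 28.1 and 31.1 CPM in siNC and 28.9, 25.6 and 21.1 CPM in siTCF19, so the groups overlapped. Its edgeR adjusted p was 0.0361, and the call was lost in 7 of 16 alternative runs, among them without siTCF19 replicate 3, where its log2 fold change was -0.11 (0.355). KIF2A and LRRC70 overlap 22.6% of the exon bases of IPO11.

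IPO4, a histone import receptor, was near the limit of counting at 0.443 to 1.72 CPM, and with a fold of 0.644 and a 95% interval of 0.369 to 1.12 it was not called (edgeR adjusted p = 0.208). Other genes, REC8 among them, overlap 70.1% of its exon bases, and reads there cannot be assigned to 1 gene. Over all 43 tested members IPO4 had the lowest mean, 0.203 FPKM, and KPNA5, at 1.63 FPKM, was next.

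Exportins were the group in which every tested member fell, 6 of 6, with a median log2 fold change of -0.23. Lower calls made 28.2% of all tested genes at 10 CPM or more. XPO6 (chr16:28097979-28211920), the export receptor of actin and profilin, had the lowest p of the group and read 263, 281 and 264 CPM in siNC and 213, 232 and 234 CPM in siTCF19. Its log2 fold change was -0.25 ± 0.05 (edgeR adjusted p = 3.08e-05). XPOT (chr12:64404350-64451127), which exports tRNA and had the highest FPKM of the group, read 427, 411 and 420 CPM in siNC and 369, 379 and 359 CPM in siTCF19, with a log2 fold change of -0.18 ± 0.04 (edgeR adjusted p = 0.000611). No siTCF19 library reached the lowest siNC library in any of the 6 genes.

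XPO4, which exports the translation factor eIF5A, read 124, 110 and 120 CPM in siNC and 95.03, 103 and 88.5 CPM in siTCF19 (log2 fold change -0.30 ± 0.06, edgeR adjusted p = 3.25e-05). XPO5, the export receptor of microRNA precursors, fell by 13.6% (edgeR adjusted p = 0.000691), and XPO7 fell by 15.9% (edgeR adjusted p = 9.51e-05). XPO1, the main exporter of proteins with leucine-rich export signals, read 391, 365 and 383 CPM in siNC and 348, 351 and 330 CPM in siTCF19, the smallest called fall, 9.61% (edgeR adjusted p = 0.00771). The call of XPO1 was lost with scaling by library size alone (0.118), without siNC replicate 1 (0.0594) and without siTCF19 replicate 3 (0.0530). The summed FPKM of the exportins ran from 177 to 180 over the siNC libraries and from 150 to 157 over the siTCF19 libraries, and XPOT held 31.4% to 31.9% of it in siNC and 32.1% to 32.4% in siTCF19.

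**Figure D3:**
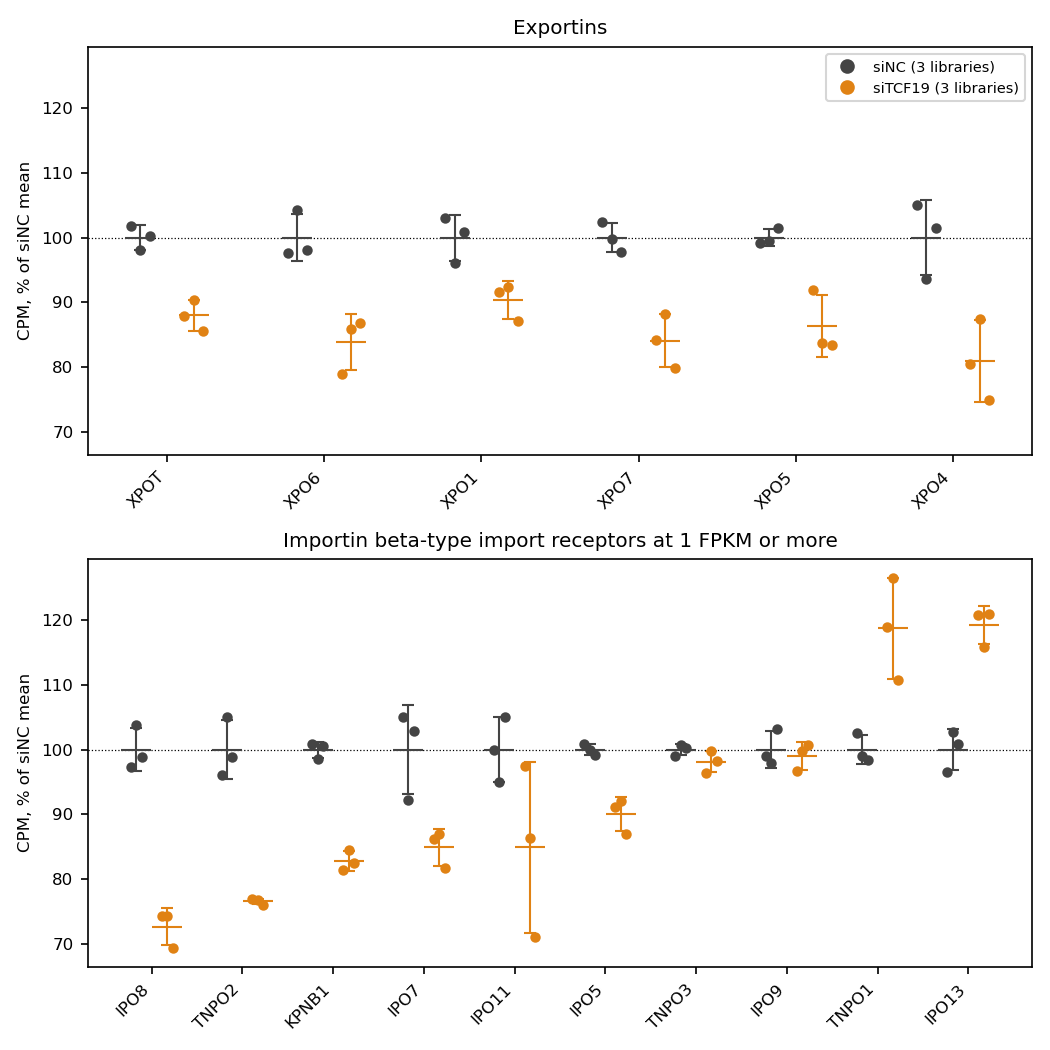
Level of each exportin and each importin beta-type receptor at 1 FPKM or more in every library, as CPM in percent of the siNC mean of the gene (y axis, not starting at 0), with points for libraries and bars for the mean and SD of 3 libraries. The 6 exportins lie below their control libraries without overlap, and among the import receptors TNPO1 and IPO13 lie above them.

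Levels differed widely between members. By mean FPKM over the 6 libraries KPNA2 (115) was followed by KPNB1 (73.7), XPOT (53.0), IPO5 (43.3), NUP210 (35.8), XPO6 (34.8) and XPO1 (30.6). The first 4 came in that order in both groups. NUP210 stood below XPO6 in siNC (33.5 and 37.8 FPKM) and above it in siTCF19 (38.0 and 31.7 FPKM). The median member stood at 21.3 FPKM in siNC and 18.5 FPKM in siTCF19. NUP188 and NUP205 were both at 30.3 FPKM in siNC, closer than the spread of their libraries. The summed FPKM of all 44 members was 1033 ± 7.29 in siNC and 935 ± 12.0 in siTCF19 (SD, n = 3). Between the groups this sum also carries the library sizes implied by the FPKM.

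Genes of the same pathway whose names do not follow the rule were read from 4 lists. The Ran cycle, which powers the receptors, had 5 falls and no rise among 7 tested genes, with a median log2 fold change of -0.22. Its share of falls was 71.4%, against 28.2% of all tested genes at 10 CPM or more. RANGRF, which was not called, is counted in the list though it stood below that level, at 2.21 to 3.74 CPM. RCC1, which loads RAN with GTP on chromatin, read 244, 256 and 236 CPM in siNC and 156, 157 and 153 CPM in siTCF19, with a log2 fold change of -0.66 ± 0.05 (edgeR adjusted p = 4.61e-15). This was a larger change than any called member showed. RAN itself read 564, 570 and 542 CPM in siNC and 415, 417 and 447 CPM in siTCF19 (log2 fold change -0.39, edgeR adjusted p = 9.85e-10). RANGAP1, which triggers GTP hydrolysis by RAN in the cytoplasm, read 338, 356 and 344 CPM in siNC and 267, 251 and 272 CPM in siTCF19 (log2 fold change -0.40, edgeR adjusted p = 1.84e-09).

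Of 11 other pore components 5 fell (45.5%) and 1 rose (9.09%), against 28.2% and 26.1% of all tested genes at 10 CPM or more. RAE1, an export factor that binds NUP98, had a mean of 59.5 CPM in siNC and 46.9 CPM in siTCF19 (edgeR adjusted p = 2.31e-05). GLE1, which acts with the cytoplasmic RNA helicase at the pore, went from 123 to 105 CPM (edgeR adjusted p = 0.000447), and AHCTF1, which seats the Y complex on chromatin, from 184 to 163 CPM (edgeR adjusted p = 0.00359). SEC13, shared by the Y complex and COPII vesicle coats, rose from 153 to 170 CPM (edgeR adjusted p = 0.0170). The call of SEC13 was lost without siNC replicate 3 (0.159), without siTCF19 replicate 3 (0.0878) and with limma-trend on FPKM (0.0736), and that of AHCTF1 with scaling by library size alone (0.0507). POM121 and POM121C are near-identical copies, and how reads were divided between them was not tested.

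Of 7 other receptors and adaptors 2 fell, a share of 28.6%, close to the 28.2% of all tested genes at 10 CPM or more. None rose, against 26.1% of those genes. CSE1L, the exportin that returns importin alpha to the cytoplasm, fell from 207 to 180 CPM (edgeR adjusted p = 0.000676). HEATR3, an import factor for ribosomal proteins, fell from 50.1 to 43.6 CPM (edgeR adjusted p = 0.0144). The call of HEATR3 was lost without siNC replicate 2 (0.0884), siNC replicate 3 (0.0570) or siTCF19 replicate 1 (0.0910), and with scaling by library size alone (0.0882). Of 20 tested genes of mRNA export 7 fell (35.0%) and none rose. That share of falls is near the 28.2% of all tested genes at 10 CPM or more, whereas 26.1% of those genes were called higher. SARNP, at 0.446 to 1.46 CPM, is counted among the 20 though below that level. THOC5 of the THO complex went from 88.9 to 70.1 CPM (edgeR adjusted p = 2.79e-06), the export helicase DDX39B from 117 to 92.2 CPM (edgeR adjusted p = 1.23e-06) and its paralog DDX39A from 348 to 299 CPM (edgeR adjusted p = 0.000209). NXF1, the main mRNA export receptor and no importin or exportin, was not called, with a log2 fold change of 0.01 (edgeR adjusted p = 0.867). Over the 4 lists 19 of 45 tested genes fell (42.2%) and 1 rose (2.22%), with a median log2 fold change of -0.08. The shares were 28.2% and 26.1% of all tested genes at 10 CPM or more, a level that RANGRF and SARNP did not reach.

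**Figure D4:**
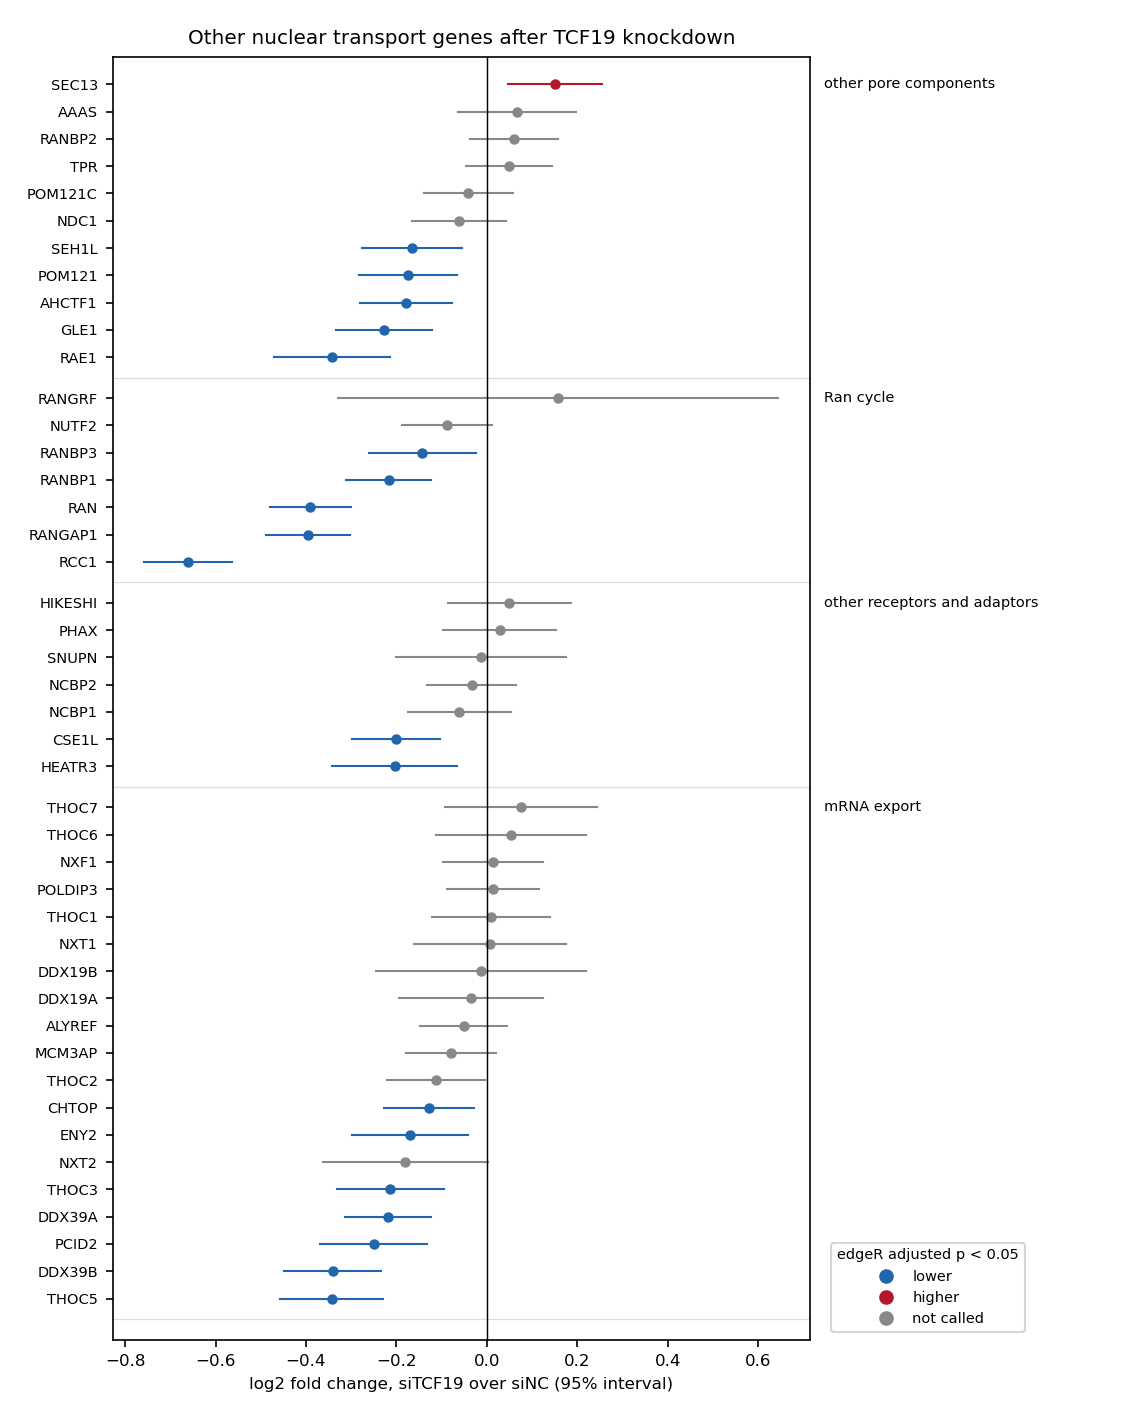
Log2 fold change (siTCF19 over siNC) of the 44 listed genes at 1 FPKM or more in the 4 lists outside the naming rule, with 95% intervals, blue for called lower, red for called higher and grey for not called at an edgeR adjusted p under 0.05. RCC1, at -0.66, lies farthest from 0.

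The authors' deposited table, read for the same 44 genes at an adjusted p under 0.05, lists 22 members as lower and 4 as higher. Reads of members could be shared with other genes in places. In the annotation 22 members have an exon overlapped by another gene, and in 5 this covers more than 15% of exon bases. In 18 members such a gene lies on the opposite strand, and no strand setting of the counting was given in the sources used here. Named pseudogenes were found for 9 members, and summed per member they held at most 3.91% of the counts of the parent gene, in IPO5.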

How the data were processed

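The deposited table holds whole-number read counts and FPKM per gene and library, per the file headers, and the authors made the counts with HISAT2 2.0.5 and featureCounts 1.5.0-p3 on hg38, per the submitters' processing notes. The authors' normalized mean signal, log2 fold change, p-value and adjusted p-value per gene, named per the file headers, were read only to set the authors' calls beside those made here. All 58735 gene identifiers matched GENCODE release 29, and 27 symbols stored as dates were replaced through it. How strand and reads with several matches were treated was not given in the sources used here.

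Counts were filtered with filterByExpr (17299 genes, at least 99.7% of each library's counts), scaled by TMM and tested with edgeR 4.0.16 (glmQLFit, glmQLFTest, R 4.3.3) in a model of the 2 groups. Benjamini-Hochberg adjustment ran over all 17299 genes, and each adjusted p in the text comes from that fit unless an alternative is named beside it. Errors are SDs over 3 libraries or standard errors of log2 fold changes, and intervals are 95% intervals from those standard errors. FPKM ratios and shares are descriptions without a test. The main edgeR fit was tested on simulated counts with known folds, and the other steps were not tested in that way.

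The members and all gene lists were chosen with earlier results of these data known. Named by rule were TCF19, called members whose log2 fold change reached 0.5 in either direction (none), in each role the called member with the lowest p and the member with the highest FPKM, and up to 3 called genes per direction in each outside list. Other members are named to account for all of them, and the FPKM ratios were chosen after values were seen. Promoters were read from RefSeq (GRCh38.p14), and motifs were searched in the 250 bases before the start. The numbers of the replicates were checked for pairing: deviations of same-numbered libraries correlated at 0.009, -0.024 and 0.021. No component shared by number was seen, which cannot show whether cultures were paired, as the labels do not say. Alternatives were 3 other scalings (RLE, upper quartile, library size only), 2 other filters, DESeq2 1.42.0, limma-voom and limma-trend on log2(FPKM + 1) (limma 3.58.1), a replicate block, protein-coding genes alone, a threshold of 0.01, and leaving out each library. The intervals cover counting and replicate error only.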

Additional observations from a re-analysis of the deposited data

How the results depend on the processing

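Members called lower numbered 20 to 23 and members called higher 4 to 7 over 17 alternatives, and no member changed direction where it was called. Leaving out 1 library gave 4 to 7 higher calls, the 7 without siTCF19 replicate 3, which added KPNA3, NUP43 and NUP58, and 21 to 23 lower calls. The same runs gave 6285 to 6801 for all genes called, against 7183. With library-size-only scaling all genes called higher numbered 4512 and all genes called lower 2842, and the median of all genes moved to 0.06. DESeq2 called 22 members lower and 4 higher. With the replicate number as a block 23 were lower and 4 higher, with 6874 for all genes called, and no member call changed. Of the 27 called members 24 kept the call in all 16 runs at the same threshold. The exceptions were IPO11, XPO1 and IPO5, and the cause was not tested. Counts were fewest for KPNA7, at 0, and IPO4, at 0.443 to 1.72 CPM.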
